A study of Mus musculus with 10 samples.

Results

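Long noncoding RNAs that act in the nucleus, with Malat1 at their head, were followed in 10 mouse kidneys together with transcripts that host small nucleolar RNAs (snoRNAs). The members were 8 genes given by symbol, the nuclear RNAs Malat1, Neat1, Meg3 and Kcnq1ot1 and the snoRNA hosts Gas5, Snhg1, Snhg8 and Snhg12, out of 43629 genes in the count table. They were chosen by earlier results of these data, in which the Malat1 level of every control and rilmenidine kidney was known, so their values are given as a description, and the count of members called is printed once and supports nothing. Of the 8 genes, 6 matched a row of the table and 5 had counts and passed the filter on low values. Meg3 matched a row that was listed at 0 in all libraries, and the identifiers of Snhg1 and Snhg8 matched no row, so these hosts were not analysed here.

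The kidneys came from male UM-HET3 mice, a genetically diverse cross, aged 4 months. The 4 rilmenidine mice had eaten a diet with 10 ppm of the drug for 1 month from 3 months of age, and the 6 control mice, littermates of the same age and sex, had eaten the same Purina 5LG6 diet without the drug. Rilmenidine is an antihypertensive agonist of imidazoline receptors. Polyadenylated RNA was captured by its 3′ end (CEL-Seq2), and the whole kidney was measured, so that fewer cells of a type and less RNA per cell cannot be told apart.

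Malat1 is a long RNA of nuclear speckles, the bodies in which splicing factors gather, and Neat1 is the scaffold around which paraspeckles form. Kcnq1ot1 and Meg3 are transcribed from 1 parental copy of imprinted regions, where Kcnq1ot1 represses its neighbours in cis. Gas5 and the Snhg genes carry snoRNAs in their introns. Spliced transcripts of Gas5 and of some other hosts are exported to the cytoplasm, where many are removed by nonsense-mediated decay during translation. Where in the cell each RNA lies was not measured here.

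The libraries differed in depth, from 863605 to 3232063 total counts, and the 4 shallowest were control 1, 3, 4 and 5. Mitochondrial genes took 7.09 to 15.2% of the counts. Olfactory and vomeronasal receptor genes, which kidney hardly uses, had 4.27 to 387 CPM (counts as a share of the library, scaled up), and control 6 and rilmenidine 3 and 4 were the libraries under 10 CPM. Part of the label text speaks of liver, but the markers of the proximal tubule summed to 42505.5 to 64318 CPM and those of liver to 5.79 to 28.5 CPM. Control 2 stood apart, with the highest sums of blood markers (8218 CPM, where the other kidneys had 995 to 3938) and of immune cell markers (208 CPM), and the lowest mitochondrial share, 7.09%. Long noncoding RNA genes other than the members took 0.343 to 1.10% of the counts, with the highest share in rilmenidine 2 and the lowest in rilmenidine 3.

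Malat1 (ENSMUSG00000092341) is annotated as an intergenic RNA at chr19:5795690-5802672 on the minus strand of GRCm38, and its longest transcript has a single exon. The gene shares 7.72% of its exonic bases with other annotated genes, 6.49% on the opposite strand. The Malat1 gene is known to end without a poly(A) tail. The enzyme RNase P cuts off a tRNA-like RNA, and the new end is protected by a triple helix of U-rich words and an A-rich tract. Neat1 (ENSMUSG00000092274), its neighbour at chr19:5824708-5845478, also on the minus strand, has a long form that ends in this way and a short form with a conventional poly(A) tail. The same words stood in both transcripts, as shown by 95 bases from each, Malat1-201 at chr19:5795982-5796076 and Neat1-201 at chr19:5824708-5824802, with the 2 U-rich words and the A-rich word in capitals.
Malat1-201: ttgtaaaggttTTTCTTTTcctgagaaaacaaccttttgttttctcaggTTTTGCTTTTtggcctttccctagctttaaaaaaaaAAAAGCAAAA
Neat1-201: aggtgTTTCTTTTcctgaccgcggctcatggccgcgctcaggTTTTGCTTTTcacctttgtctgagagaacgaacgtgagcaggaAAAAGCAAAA
The words were chosen after these sequences were seen. Reading transcripts on their own strand, TTTTGCTTTT followed 20 to 120 bases later by AAAAGCAAAA was found in 2 of 141767 annotated mouse transcripts (0.00141%), these 2. All sequences here were read from GRCm38 with the transcripts of GENCODE M21. In Malat1-201 the tract ended 292 bases before the annotated end, and in Neat1-201 at that end. A run of at least 10 A, which an oligo(dT) primer could bind, occurred once in Malat1-201, with 12 A, inside the stretch shown, and not in Neat1-201, where 7.18% of all transcripts held one.

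Malat1 was high in 4 of the 6 control kidneys and low in the rest. In the control kidneys it had 284, 1324 and 2100.2 normalized CPM (lowest, median and highest). In rilmenidine kidneys 1 to 4 it had 339, 351, 306 and 393 CPM. Control 1, 3, 4 and 5 stood at 1482, 1182, 1466 and 2100.2 CPM, each above every rilmenidine kidney, while control 2, at 398 CPM, lay just above the highest of these and control 6, at 284 CPM, below the lowest. Raw counts ran from 584 to 3631, so counting error is small beside this spread. Among controls the highest level was 7.40 times the lowest, and among rilmenidine kidneys 1.29 times. The standard deviation (SD) of log2 CPM was larger in Malat1 than in 99.2% of the tested genes among control kidneys and larger than in 17% among rilmenidine kidneys.
The log2 fold change, rilmenidine over control, was −1.73 (standard error (SE) 0.42), with means of 1152 ± 697 (SD, n = 6) and 347 ± 36.1 (SD, n = 4) CPM. The 4 high kidneys were the 4 shallowest libraries, and the 2 controls with low Malat1, control 2 and 6, were the deepest controls (1787638 and 2559118 counts). Among the 4 high kidneys control 5 was the deepest and the highest, and control 1, the shallowest, came next in level. Among the rilmenidine libraries rilmenidine 4 was the deepest and the highest, and rilmenidine 3, next in depth, was the lowest. The part of depth in the difference was not tested. Adjusted for log2 library size, a term added to the fit, the log2 fold change was −0.99, and among the 7 libraries with at least 10 CPM on receptor genes (5 control and 2 rilmenidine) it was −1.94. The 3 libraries under 10 CPM held 1 control, at 284 CPM, and 2 rilmenidine kidneys, at 306 and 393 CPM, too few for a test.

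Neat1 was higher in 5 of the 6 control kidneys than in any rilmenidine kidney. Its normalized CPM were 207, 900.4 and 1426 (lowest, median and highest) in control kidneys and 164, 224, 156 and 179 in rilmenidine kidneys 1 to 4. Controls 3, 4 and 5 had 1426, 1267 and 1335 CPM, control 1 had 534 and control 6 had 294, all above every rilmenidine kidney, and control 2 alone, at 207 CPM, lay within their range. The log2 fold change was −2.22 (SE 0.46), with means of 844 ± 559 (SD, n = 6) and 181 ± 30.7 (SD, n = 4) CPM. It was −1.60 adjusted for library size. The control SD of log2 CPM was larger than in 99.4% of the tested genes.
The 3′ end of the short form Neat1-202, at chr19:5842307-5842346 on the minus strand, holds a poly(A) signal (in capitals), and it is shown because the deposited count is per gene and does not separate the short form from the long one.
Neat1-202: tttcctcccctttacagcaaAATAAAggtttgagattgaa
AATAAA or ATTAAA occurred in the last 40 bases of 32.6% of all annotated transcripts on the transcript strand, and in 3 of the 4 annotated Malat1 transcripts.

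**Figure D1:**
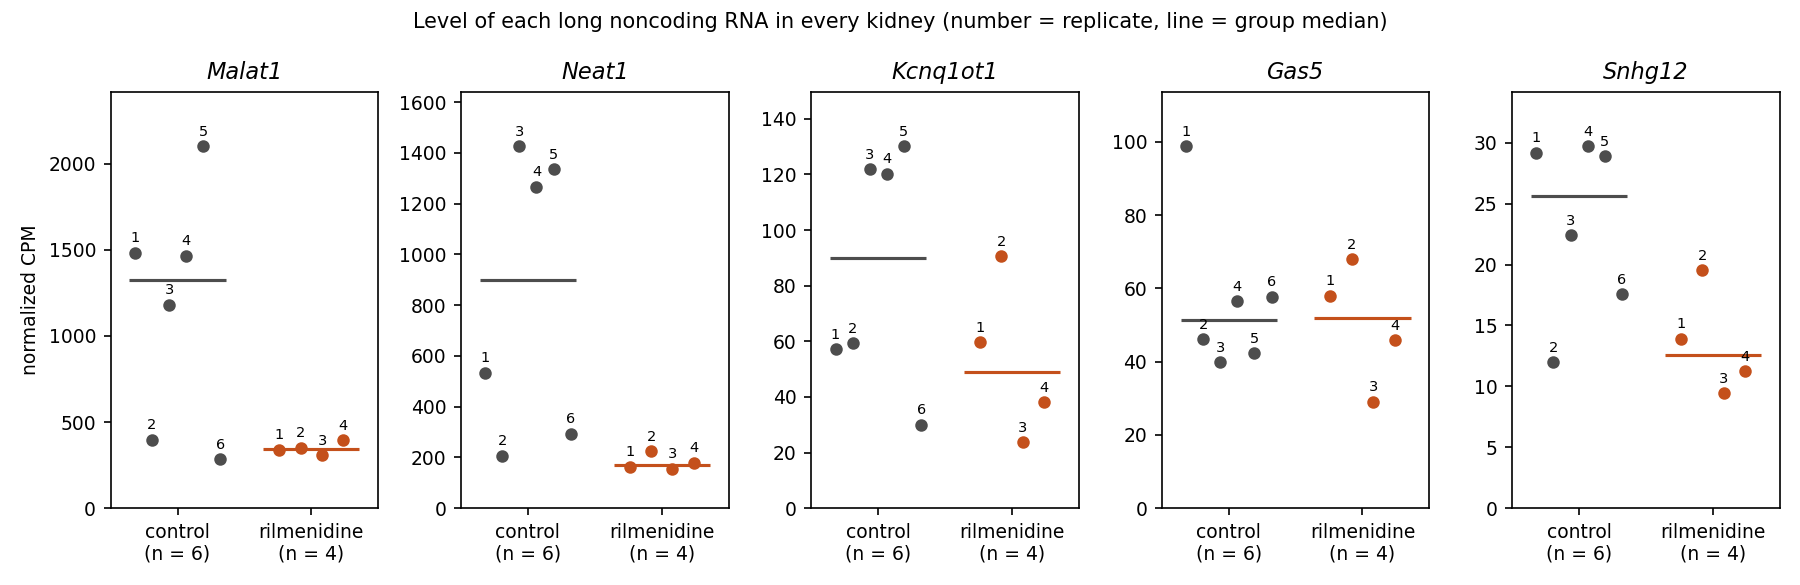
Normalized CPM (linear axes from 0, a separate scale for each gene) of the 5 long noncoding RNAs with counts, with 1 point per kidney numbered by replicate and a line at the group median. Malat1 lay between 306 and 393 CPM in the 4 rilmenidine kidneys and at 1182 CPM or more in control 1, 3, 4 and 5, while Gas5 had overlapping groups.

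Kcnq1ot1 (ENSMUSG00000101609) was higher in 3 of the 6 control kidneys than in any rilmenidine kidney. It lies at chr7:143203458-143296549 on the minus strand, antisense to the potassium channel gene Kcnq1. The strand setting of the counting is not given, so reads from the 2 strands cannot be told apart. Exons of genes on the other strand cover 1.20% of its 93092 exonic bases. Introns are not in this share, and how many reads come from unspliced transcripts of the other strand was not measured. Its normalized CPM were 30.02, 89.8 and 130.1 (lowest, median and highest) in control kidneys and 59.7, 90.7, 23.8 and 38.1 in rilmenidine kidneys 1 to 4. Control 3, 4 and 5, at 122, 120.3 and 130.1 CPM, were the highest, whereas control 1, high in Malat1, had only 57.2 CPM. Rilmenidine 2, which followed these 3, was the library with the highest receptor signal (387 CPM). Control 2, next in that signal at 296 CPM, had 59.3 CPM of Kcnq1ot1. The log2 fold change was −0.72 (SE 0.39). It was −0.016 adjusted for library size and −0.39 among the 7 libraries with at least 10 receptor CPM, and it was −1.11 without rilmenidine 2 and −0.47 without rilmenidine 3. Low levels went with a low receptor signal, since the 3 libraries under 10 receptor CPM had the lowest Kcnq1ot1 levels, 23.8 to 38.1 CPM, and the part of this in the difference was not tested.
The Kcnq1ot1 transcript held 10 runs of at least 10 A, the longest of 41, more than any other member. It is also by far the longest member, with 93092 bases, where the longest Meg3 transcript held 6 such runs in 14548 bases. The annotated Kcnq1ot1 end at chr7:143203458-143203497 holds both poly(A) signals in capitals.
Kcnq1ot1-201: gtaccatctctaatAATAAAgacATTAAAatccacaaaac

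Meg3 (ENSMUSG00000021268; chr12:109541001-109571726, plus strand), the maternally expressed RNA of the Dlk1 to Dio3 imprinted region, was listed at 0 in all 10 libraries. A count of 0 allows up to 3 counts, or 0.928 to 3.47 CPM depending on the library, for counting error only. Srsf1, a splicing factor used by every cell, was also listed at 0 in all 10, so this is no measure of absence. Of 7 imprinted neighbours of Meg3, 3 (Dlk1, Rtl1 and Rian) were likewise at 0 throughout, and none passed the filter.

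Gas5 had overlapping levels in control and rilmenidine kidneys. The gene (ENSMUSG00000053332; chr1:161034422-161038539, plus strand) is a growth-arrest transcript with 10 annotated snoRNA genes inside it. Its normalized CPM were 39.8, 51.3 and 98.8 (lowest, median and highest) in control kidneys and 58.0, 67.9, 29.0 and 45.9 in rilmenidine kidneys 1 to 4. Control 1 was the highest and rilmenidine 3 the lowest, and 5 of the 6 controls lay within the range of the rilmenidine kidneys. Control 3 and 5, among the highest in Malat1, had the 2 lowest Gas5 values of the control group, 39.8 and 42.2 CPM. The log2 fold change was −0.17 (SE 0.25), less than its error, and it was above 0 without control 1 (0.027), without rilmenidine 3 (0.024), adjusted for library size (0.19) and among the 7 libraries with at least 10 receptor CPM (0.18).

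Snhg12, a host as well, had its 4 highest levels in the same kidneys as Malat1. The gene (ENSMUSG00000086290; chr4:132308623-132311024, plus strand) holds 5 annotated snoRNA genes. Its normalized CPM were 11.98, 25.7 and 29.7 (lowest, median and highest) in control kidneys and 13.9, 19.5, 9.45 and 11.2 in rilmenidine kidneys 1 to 4. Control 1, 3, 4 and 5 had 22.4 to 29.7 CPM, above every rilmenidine kidney, and control 2 and 6 lay within the range of the treated kidneys. The log2 fold change was −0.79 (SE 0.28), and −0.35 adjusted for library size. Raw counts were low, 20 to 50 per library, and 19.6% of its exonic bases are shared with other annotated genes (17.8% for Gas5). How many of its reads fall on those bases was not measured, so both levels are uncertain.
Transcripts of snoRNA hosts often start with a run of pyrimidines, a mark of messenger RNAs whose translation follows growth signals, and some annotated starts of the hosts have such a run. The first 24 bases of Gas5-203 and of the longest Snhg12 transcript, at chr1:161034929-161034952 and chr4:132308676-132308699, are shown with the leading pyrimidines in capitals, beside the start of Malat1 at chr19:5802649-5802672. In each gene a transcript with the longest leading run was chosen for display, so the starts shown for the hosts are not typical of their transcripts.
Gas5 start: CCCCTCagcctgtactcctcaggg
Snhg12 start: CCTTTCTCgcttcatccgcggtcc
Malat1 start: caggcattcaggcagcgagagcag
A start with C and at least 4 further pyrimidines was found in 5 of 25 Gas5, 3 of 10 Snhg12 and 1 of 3 Snhg8 transcripts but in 0 of 18 of the host Snhg1. Among the nuclear RNAs it was found in none of the Malat1, Neat1 or Kcnq1ot1 transcripts and in 1 of 11 Meg3 transcripts, whose run of 12 was the longest among the members. Of all annotated transcripts 2.02% had such a start. The ends of both hosts, Gas5-203 at chr1:161038496-161038535 and Snhg12-201 at chr4:132310985-132311024, have a poly(A) signal.
Gas5-203 end: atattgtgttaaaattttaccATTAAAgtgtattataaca
Snhg12-201 end: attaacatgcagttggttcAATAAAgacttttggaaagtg

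**Figure D2:**
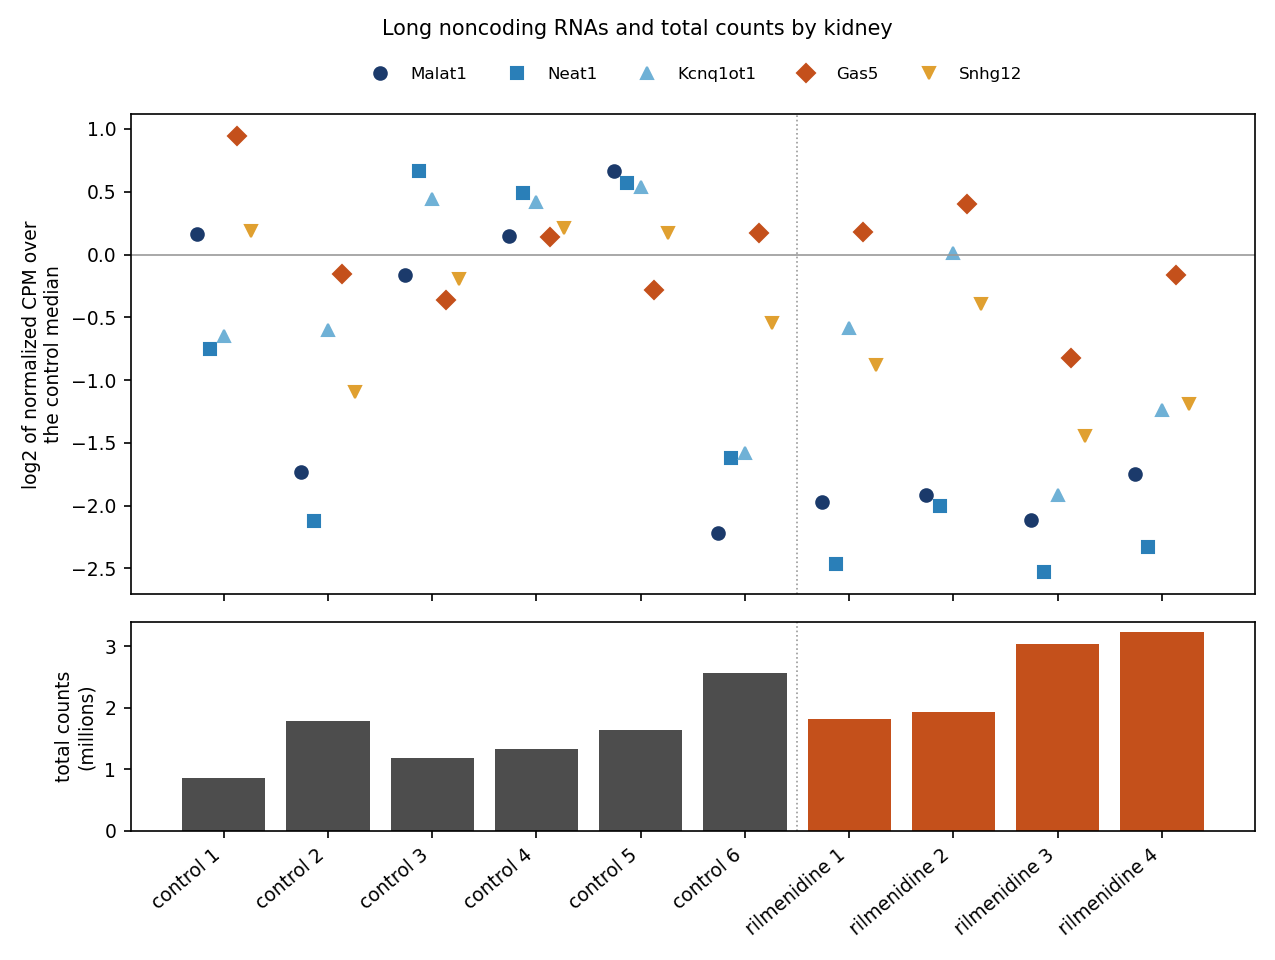
Top, log2 of normalized CPM over the control median for each long noncoding RNA (markers) in every kidney. Bottom, total counts of the library, on an axis from 0. Malat1 and Neat1 lay more than 1.5 below the control median in control 2, control 6 and the 4 rilmenidine kidneys, and the 4 libraries with the lowest totals, control 1, 3, 4 and 5, were the highest in Malat1.

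None of the 5 tested members had an adjusted p under 0.05 (edgeR quasi-likelihood test, Benjamini-Hochberg over 10055 genes), and 0 genes (0%) passed in all. At an unadjusted p under 0.05 there were 3 members, Malat1, Neat1 and Snhg12, all lower in rilmenidine kidneys, where 10.6% of all tested genes passed, 4.43% higher and 6.13% lower. The members were chosen with this contrast known, so nothing is read from this count or from those that follow. DESeq2 called 1 of the 5 (Neat1) and 60 genes in all, and the edgeR likelihood ratio test called 2 (Malat1 and Neat1) and 44 in all. Without control 2, the library with the highest blood and immune marker sums, or without control 6, which are the 2 controls with low Malat1, the quasi-likelihood test called Malat1 and Neat1, with 33 and 37 genes in all. With a filter of only 1 count in any library it called 3 members, Malat1, Neat1 and Kcnq1ot1, with 241 of 27565 genes in all. Adjusted for log2 library size it called 0 members and 0 genes in all, with an adjusted p of 0.975 for Malat1 and Neat1. In that fit 1 of the 5 members had an unadjusted p under 0.05, where 432 of 10055 genes did. None of the 5 members had all rilmenidine kidneys outside the control range, which 1.67% of the tested genes had.

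The nuclear RNAs agreed in part on which kidneys were high. The 4 kidneys highest in Malat1 were also the 4 highest in Neat1 and in Snhg12. Kcnq1ot1 shared 3 of the 4, with rilmenidine 2 in place of control 1, and Gas5 shared 1. Over the 10 kidneys, Pearson's r of log2 CPM with Malat1 was 0.910 for Neat1, 0.846 for Snhg12, 0.731 for Kcnq1ot1 and 0.181 for Gas5, and Spearman's rho was 0.697, 0.709, 0.673 and −0.018. Over the 6 controls alone r was 0.850, 0.869, 0.816 and 0.0632. These values are descriptions with no test. The kidneys form separate clusters in Malat1, all points share a library's depth and normalization factor, and Malat1 hardly varied among the rilmenidine kidneys.
Agreement was loose within the high kidneys. The ratio of Neat1 to Malat1 CPM, compared only between kidneys, was 0.361 in control 1, 1.21 in control 3, 0.864 in control 4 and 0.636 in control 5. In control 2 and 6 it was 0.521 and 1.03, and it was 0.456 to 0.639 in the rilmenidine kidneys, inside the control range. Relative to Gas5, Malat1 had a ratio of 4.92 to 49.7 in control and 5.17 to 10.5 in rilmenidine kidneys, and Neat1 one of 4.49 to 35.8 and 2.82 to 5.36. A ratio within 1 library does not depend on the normalization, and in both cases the groups overlapped. The ratio of Snhg12 to Gas5 was 0.260 to 0.685 in control and 0.240 to 0.325 in rilmenidine kidneys.

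**Figure D3:**
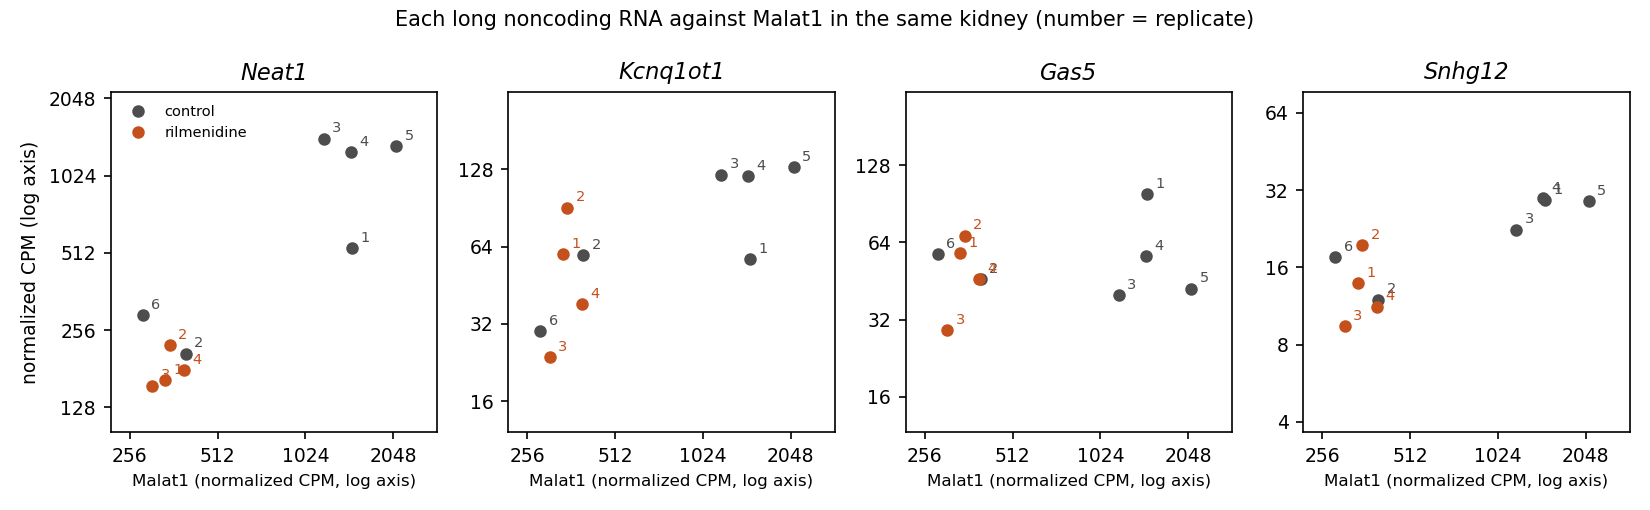
Normalized CPM of 4 long noncoding RNAs against Malat1 in the same kidney (both axes logarithmic), numbered by replicate. Control 1, 3, 4 and 5 stand apart to the right in every panel, high in Neat1 and Snhg12 and at 39.8 to 98.8 CPM in Gas5.

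Many genes followed Malat1 more closely over the 10 kidneys than Neat1 did. Among 10054 other tested genes, 108 had r of at least 0.9 and 104 had r of −0.9 or lower, and Neat1 was in place 84 from the top. The 5 highest were Hnrnph1 (0.985), a splicing regulator, Mlxipl (0.971), the carbohydrate response factor ChREBP, Arl8b (0.970), a GTPase of lysosomes, Chuk (0.967), a kinase of the NF-κB pathway, and AI480526 (0.965). Over the controls alone these 5 had r of 0.952 to 0.999, but the controls were among the kidneys used to pick them, so this adds nothing. Over the rilmenidine kidneys alone, where Malat1 hardly varied, r was −0.22 for Hnrnph1 and −0.037 for AI480526. It was 0.969 for Mlxipl, 0.909 for Arl8b and 0.786 for Chuk. Among the lowest were Aurkaip1 (−0.971), a protein of the mitochondrial ribosome, Cox8a (−0.961), a subunit of respiratory complex IV, Chmp2a (−0.960), a membrane-remodelling protein, and Ndufs8 (−0.958), a subunit of complex I. Over the controls alone these 4 had r of −0.974 to −0.944, with the same limit. Over the rilmenidine kidneys alone r was −0.57 for Aurkaip1, 0.15 for Cox8a, −0.37 for Chmp2a and −0.58 for Ndufs8.
Hnrnph1 had 29.6 to 75.8 CPM in control and 30.7 to 36.7 CPM in rilmenidine kidneys, and Aurkaip1 had 68.3 to 113 and 109 to 122 CPM. In both genes, as in Malat1, the control range was wider than that of the treated kidneys.

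Genes that work with these RNAs were read from lists of known partners, in which the members' counts played no part, although the lists were written with earlier results of these data known. Over 112 tested genes of all lists, 0 had an adjusted p under 0.05 by the edgeR quasi-likelihood test. At an unadjusted p under 0.05 there were 36 (32.1%), 5 higher and 31 lower, against 10.6% of all tested genes, and the median log2 fold change was −0.18 where that of all genes was 0.00. DESeq2 called 5 of the 112 (Pnn, Cpsf6, Luc7l3, Srsf5 and Srrm2) and the likelihood ratio test 3 (Pnn, Pnisr and Cpsf6), all lower. The quasi-likelihood test called 6 without control 2, and 3 without control 6 (Pnn, Pnisr and Snhg20). Control 2 and 6 are the controls with low Malat1. Adjusted for library size, the unadjusted count was 7 of 112, where 432 of 10055 genes passed.

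The speckle proteins, the splicing factors and kinases that share a compartment with Malat1, had the lowest median of the protein lists. All 19 tested genes had a log2 fold change below 0, against 4999 of all 10055 tested genes, and their median was −0.61. Of the 19, 13 (68.4%) had an unadjusted p under 0.05, where 10.6% of all tested genes did. Pnn, a splicing-associated protein of speckles, had 30.02, 68.8 and 95.8 CPM (lowest, median and highest) in control and 22.4 to 26.6 CPM in rilmenidine kidneys. Its log2 fold change was −1.33 (SE 0.28), with an adjusted p of 0.174 from the edgeR quasi-likelihood test, and −0.78 adjusted for library size. Pnisr, a partner of Pnn, had 68.6, 198 and 278 CPM in control and 51.1 to 79.4 CPM in rilmenidine kidneys, a log2 fold change of −1.47 (SE 0.35) with an adjusted p of 0.211 from the same edgeR test, and −0.87 adjusted for library size. In Pnn and in Srrm2, a large scaffold of speckles with 116 to 203 CPM in control and 81.8 to 102 in treated kidneys, all 4 rilmenidine kidneys lay below the control range. These were 2 of the 19 genes, where 1.67% of all tested genes lay outside that range on either side.
Paraspeckle proteins, which gather on Neat1, stood closer to 0. Of 20 tested genes, 5 (25%) had an unadjusted p under 0.05, where 10.6% of all tested genes did. All 5 were lower (Cpsf6, Sfpq, Tardbp, Hnrnph1 and Srsf10). In 16 of the 20 the log2 fold change was below 0, against 4999 of all 10055 tested genes, and the median was −0.22. Cpsf6, a 3′ end processing factor, had a log2 fold change of −0.96 (SE 0.22, adjusted p of 0.193 from the edgeR quasi-likelihood test), with 59.3 to 152 CPM in control and 53.1 to 64.6 CPM in rilmenidine kidneys. Sfpq, an essential paraspeckle protein, had −0.60 (SE 0.17, adjusted p of 0.272 from the same edgeR test).

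The factors that process and remove these RNAs had medians nearer 0. Of 10 subunits of RNase P and the enzymes that finish tRNA-like ends, 1 (10%) had an unadjusted p under 0.05, near the 10.6% of all tested genes. This was Pop5, an RNase P subunit, at 0.45 (SE 0.14), with 48.6 to 67.5 CPM in control and 65.7 to 85.4 CPM in rilmenidine kidneys, and Pop1 had 0.34 (SE 0.29), or 0.098 adjusted for library size. Of 10 writers and nuclear readers of the m6A mark, 3 (30%) passed the unadjusted threshold, all lower. These were the writer subunit Rbm15 at −0.93 (SE 0.34), the reader Ythdc1 at −0.63 (SE 0.25) and Hnrnpa2b1 at −0.36 (SE 0.13). Of 14 factors of nonsense-mediated decay and the exon junction, which act on Gas5 and its like, 3 (21.4%) passed that threshold. Of these 1 was higher and 2 were lower, and the list's median was −0.15. The decay kinase Smg1 had −0.72 (SE 0.22), the decay factor Upf3b −0.45 (SE 0.21) and the exon junction helicase Eif4a3 0.49 (SE 0.18), or 0.33 adjusted for library size. Of 13 proteins that form snoRNA particles, 1 passed (7.69%, below the share of all genes), Nop10, at 0.45 (SE 0.18), the assembly factor Naf1 had −0.36 (SE 0.18), and the median was 0.13. Among the 7 libraries with at least 10 receptor CPM, Nop10 had 0.81 and Naf1 −0.65. The adjusted p of these genes was 0.279 to 0.723 in the edgeR quasi-likelihood test.

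**Figure D4:**
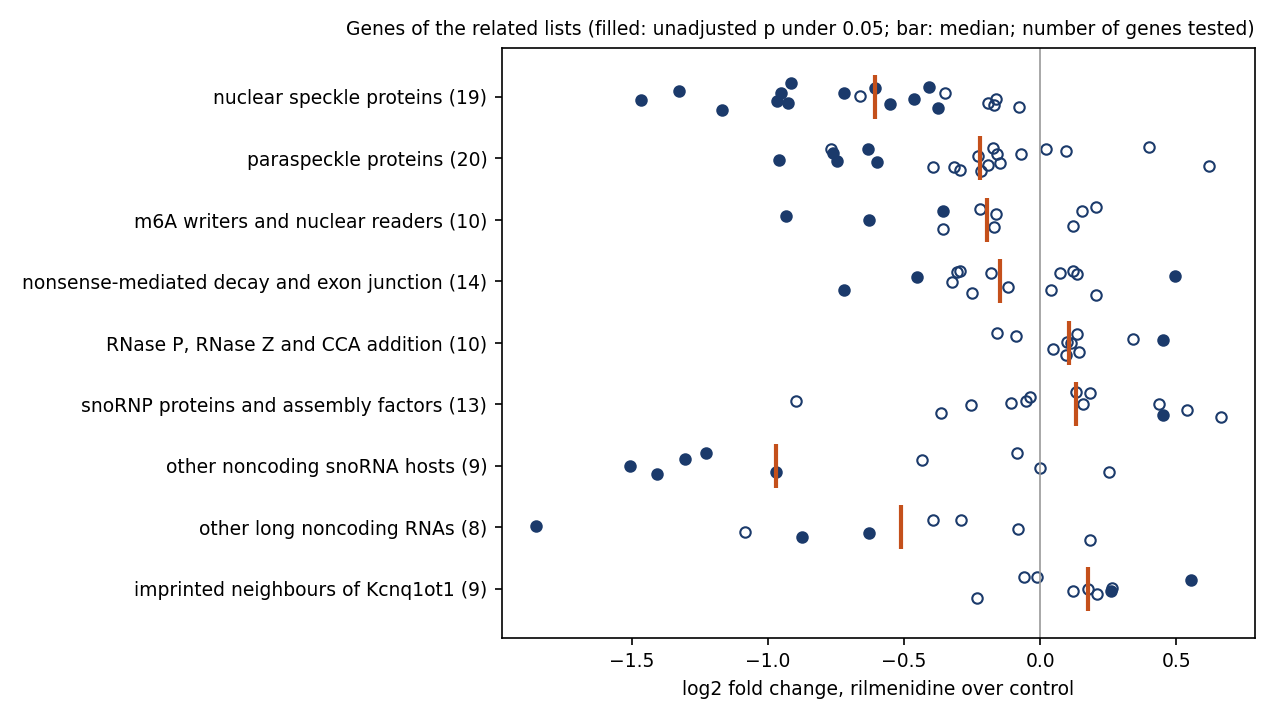
Log2 fold change, rilmenidine over control, of every tested gene in 9 lists, filled where the unadjusted p was under 0.05, with a bar at the list's median. All 19 speckle genes lie below 0, where 4999 of all 10055 tested genes did. The bars of RNase P, snoRNA particle proteins and Kcnq1ot1 neighbours lie above 0.

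Among the other noncoding hosts, 8 of 9 log2 fold changes were below 0, against 4999 of all 10055 tested genes. Of 9 tested hosts, 5 (55.6%) had an unadjusted p under 0.05, where 10.6% of all tested genes did. All 5 were lower (Snhg5, Snhg11, Snhg14, Snhg17 and Snhg20), and the hosts' median log2 fold change was −0.97. Snhg20 had 7.80 to 63.6 CPM in control and 8.12 to 14.1 CPM in rilmenidine kidneys, a log2 fold change of −1.51 (SE 0.44) with an adjusted p of 0.272 in the edgeR quasi-likelihood test. Snhg11 had 22.6 to 124 and 10.1 to 36.9 CPM, with −1.41 (SE 0.41) and the same adjusted p of 0.272 in that edgeR test. Adjusted for library size the 2 had −0.95 and −0.78. Snhg18 and Epb41l4aos had 0.25 (SE 0.15) and −0.0025 (SE 0.30). Raw counts were as low as 2 in Snhg5 and 14 in Snhg20.
Among 8 other tested long noncoding RNAs, 3 (37.5%) had an unadjusted p under 0.05, against 10.6% of all tested genes. All 3 were lower (Firre, Tug1 and Mir22hg), and the median of the 8 was −0.51. Firre, a nuclear RNA of the X chromosome, had a log2 fold change of −1.85 (SE 0.53) and Tug1 one of −0.88 (SE 0.28), with adjusted p of 0.271 and 0.296 in the edgeR quasi-likelihood test. Adjusted for library size they had −1.17 and −0.42, and Firre had as few as 3 counts in a library. Airn, the antisense RNA of the Igf2r imprinted region, had 0.18 (SE 0.26).
The listed neighbours of Kcnq1ot1 had log2 fold changes of −0.23 to 0.55, and 6 of the 9 tested were above 0, where 5056 of all 10055 tested genes were. Which of these neighbours are imprinted in kidney was not measured. Of 9 tested, 2 (22.2%) had an unadjusted p under 0.05, both higher, against 10.6% of all tested genes, and the median of the 9 was 0.18. Phlda2, a growth-restraining imprinted gene, had 13.5 to 27.3 CPM in control and 29.9 to 36.7 CPM in rilmenidine kidneys. These ranges did not overlap, where 1.67% of all tested genes had no overlap on either side. The log2 fold change of Phlda2 was 0.55 (SE 0.19) with an adjusted p of 0.313 in the edgeR quasi-likelihood test. Slc22a18 had 0.26 (SE 0.12, adjusted p of 0.471 in the same edgeR test). Adjusted for library size the 2 had 0.36 and 0.14. Cdkn1c, a cell cycle inhibitor, and Kcnq1, on the other strand, had −0.059 (SE 0.32) and −0.010 (SE 0.27).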

How the data were processed

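The deposited values are raw read counts for each Ensembl gene in 10 kidney libraries. Per the labels' processing notes, reads were processed with bcl2fastq 1.8.4 and Trimmomatic 0.32, mapped to mm10 (GRCm38) by STAR 2.5.2b and assigned to genes by featureCounts 1.5. The annotation release, the strand setting and the treatment of molecular identifiers are not given in the sources used here, so counts may include amplification duplicates. The supplementary methods give more control mice than the 6 labelled here. The labels call the samples biological replicates, and no pair of libraries was a copy (the chi-square per degree of freedom was at least 3.41).

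Of 43629 rows, 42462 were found in GENCODE M21, which gave symbols, coordinates and transcripts. The 10055 genes that reached 6 reads in 66.6% of the libraries or more were kept, normalized by RLE and tested two-sided in edgeR 4.0.16 (R 4.3.3) with the quasi-likelihood test, without covariates, at a threshold of 0.05 after Benjamini-Hochberg adjustment. Normalized CPM use these factors, and log2 CPM a prior count of 2. On simulated data the test found 197 of 200 changed genes, with 11 false calls among 9806. There the planted change was of 1 fixed, large size, only in genes with higher counts, and noise was drawn independently for each gene. Apart from depth, differences between libraries that many genes share were not simulated, so this is not the power in these kidneys. DESeq2 1.42.0 was an alternative, with those given in the closing section.

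The members and lists were chosen with earlier results of these data known. Named genes are the members, the 2 genes with the smallest p in each list, the 5 most and 5 least like Malat1, and genes that a small count names, of which 1 is not reported here. Some neighbours of these genes in the lists were named after their values were seen. Total counts of 863605 to 3232063 limit low genes.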

Additional observations from a re-analysis of the deposited data

Results flagged for a closer look

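Gas5 in control 1 stood apart from the other 5 control kidneys, at 98.8 normalized CPM against 39.8 to 57.7, by the ratio of its gap to the group's range. By chance about 1 in 20 groups would show such a gap, and 16 groups of values were checked. Control 1 is the shallowest library, with 863605 counts.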

How the results depend on the processing

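Each of 33 named genes was fitted under up to 19 alternatives. Of 623 log2 fold changes, 614 moved by less than the spread between replicates, 5 moved further and 4 changed sign. The 4 belong to Gas5 (−0.17), which was 0.19 with log2 library size as a covariate, 0.18 among the 7 libraries with at least 10 receptor CPM and −0.35 to 0.027 with a kidney left out (0.027 without control 1 and 0.024 without rilmenidine 3). The 5 are Pnn (−0.78), Tug1 (−0.42) and Ndufs8 (0.060 from 0.36) with library size, and Nop10 (0.81) and Naf1 (−0.65) in the receptor libraries. Malat1 ranged from −1.94 to −0.99 and Neat1 from −2.43 to −1.60. The spread used as the limit was each gene's own SD, which was wide in the nuclear RNAs. So the 614 include Malat1 at −0.99 from −1.73 and Kcnq1ot1 at −0.016 from −0.72, both with library size, and are no sign that the members were stable.
The number of genes called at an adjusted p under 0.05, 0 in the quasi-likelihood test, was 241 with every gene of at least 1 count, 60 with DESeq2, 44 with the likelihood ratio test and 0 to 37 with a kidney left out. In the same order, members called were 3, 1, 2 and 0 to 2 of 5, and related genes called were 19, 5, 3 and 0 to 6. The cause of these moves was not tested. TMM, library totals, a stricter filter, log2 library size and the receptor libraries gave 0 in all.
Control and rilmenidine kidneys share numbers in the labels, but deviations correlated at −0.077 to 0.077 within a number, so the numbers were not taken as pairs. With a replicate block 3 genes were called (Khdc4, Hspa8 and Slc22a28), with 0 members and 0 related genes. At 3 counts the detection floor was 0.928 to 3.47 CPM.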
